A study of Homo sapiens with 18 samples.

Results

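The ID genes ID1, ID2, ID3 and ID4 (inhibitors of DNA binding, or of differentiation) were read by 9 probe sets of the Affymetrix Human U133 Plus 2.0 array. Every probe set whose only gene symbol is ID1, ID2, ID3 or ID4 was taken, which gave 1 probe set for ID1, 2 for ID2, 1 for ID3 and 5 for ID4. These are 9 of 41097 probe sets with a single symbol and of 54675 in all. 1 more probe set carries ID2 together with another symbol and was left out by that rule. The 4 genes make up a known family of 19775 genes read, and were selected on earlier differences in these same log2 values between the groups, so their values are described here with no test. ID proteins are helix-loop-helix proteins that lack the basic region with which related factors touch DNA. They pair with the E proteins TCF3, TCF4 and TCF12 and so keep them, and the tissue-restricted factors that need an E protein as partner, away from the E-box sequence of their target genes. ID1, ID2 and ID3 are textbook targets of BMP signalling, which reaches DNA through SMAD1, SMAD5 or SMAD9 with SMAD4. E proteins in turn are known activators of genes for inhibitors of cyclin-dependent kinases, and ID proteins are best known for keeping cells dividing and undifferentiated. ID4 has been described in prostate cells as acting apart from the other members.

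The study asked what changes in messenger RNA when ONECUT2, a homeobox transcription factor of the cut family, is raised or lowered in prostate cancer cells. Total RNA from 2 established human lines, 22Rv1 and LNCaP, was hybridised to 18 arrays, 3 in each of 6 groups. All cells grew in RPMI-1640 medium with 10% serum. The 22Rv1 control and LNCaP control groups carry the treatment label vehicle, and the labels do not say whether these cells were transduced. The 22Rv1 ONECUT2 overexpression and LNCaP ONECUT2 overexpression groups carried a lentiviral vector with the full-length ONECUT2 cDNA, a Myc-DDK tag and a puromycin resistance gene. The 22Rv1 scramble shRNA and 22Rv1 ONECUT2 shRNA groups carried a pLKO lentiviral vector, with a non-target hairpin as the control plasmid. The protocol names 2 ONECUT2 hairpin clones, and the titles of the ONECUT2 shRNA arrays carry a number that ends the name of 1 of them. Transduced cells were made into stable lines with polybrene at 5 µg/mL and puromycin at 5 µg/mL. These same amounts are listed for all 18 arrays, the control groups included. LNCaP has no shRNA groups. Nothing in the labels tells whether the 3 arrays of a group stand for separate cultures. Errors and p-values therefore cover array-to-array spread, possibly only technical.

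The values are the authors' log2 expression values, made with GCRMA. A log2 value of 4 is used below as the level under which a probe set is not told from background. The arrays of a group correlated at 0.996 or more over all probe sets, except in LNCaP overexpression, where the lowest value was 0.975. Replicate 1 of that group stood apart from the other two and had the highest mean correlation with the LNCaP controls, 0.969 against 0.948 and 0.953. Results in LNCaP overexpression are therefore given with and without it where they differ. Control probe sets at the 3' and 5' ends of the beta-actin transcript differed by 8.06 ± 0.70 (SD, n = 3) in 22Rv1 overexpression and 4.11 ± 0.41 in 22Rv1 control, and lay between 2.85 and 4.27 in the other groups. The same measure for GAPDH was -0.43 ± 0.13 in 22Rv1 overexpression, -0.70 ± 0.09 in 22Rv1 control and between -0.75 and -0.62 in the other groups. The shift seen for beta-actin in 22Rv1 overexpression was thus far smaller for GAPDH. The part of these measures of RNA or labelling quality in the 22Rv1 differences below was not tested. Of 8 luminal prostate markers read, 7 lay over 4 on every 22Rv1 control array, with TMPRSS2 under 4, and all 8 on every LNCaP control array. With overexpression 6 lay over 4 on every array in each line, with FOLH1 and TMPRSS2 under 4 in 22Rv1, and 4 of the 8 fell and 2 rose in each line (limma), with a median difference of -0.55 in 22Rv1 and -1.64 in LNCaP. Their part in the ID differences was not tested. Of 12 stromal, leukocyte and endothelial markers, 8 to 11 lay under 4 on every array of a group, among them the leukocyte markers PTPRC, CD3E, CD14 and LYZ. COL1A1 lay over 4 in every group. The log2 of the 12 markers' summed level was 8.03 to 9.08 in the control and shRNA groups, 9.85 to 9.94 in 22Rv1 overexpression and 10.67 to 12.03 in LNCaP overexpression. In both overexpression groups COL1A1 was the only marker over 4, and the other 11 lay under 4 on every array. COL3A1 and LUM lay over 4 on every 22Rv1 control array. Of 3 markers tested with limma, 1 rose and 2 fell with overexpression in each line. The part of these changes in the ID differences was not tested.

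ONECUT2 itself, read by the probe set with its highest mean (239911_at), was 8.23, 8.15 and 8.25 on the 22Rv1 control arrays and 8.59, 8.81 and 8.85 on the overexpression arrays. In LNCaP it was 6.58, 6.53 and 6.72 on the control arrays and 7.23, 7.31 and 7.28 on the overexpression arrays. A second probe set (207676_at) lay under 4 on all control arrays and read 4.78, 4.14 and 4.21 in 22Rv1 overexpression. On the LNCaP overexpression arrays it read 5.23, 7.17 and 7.43, lowest in replicate 1. Against its label, ONECUT2 was higher on the arrays labelled ONECUT2 shRNA (8.46, 9.0 and 9.12) than on those labelled scramble (6.63, 6.71 and 7.08), by 2.05 ± 0.16 (SE). Against 22Rv1 control, the arrays labelled scramble were lower by 1.41 ± 0.16 and those labelled ONECUT2 shRNA higher by 0.65 ± 0.16. Another probe set (233446_at) was lower in 22Rv1 overexpression than in control, at 4.46 against 5.43. For this reason the groups are called the arrays labelled ONECUT2 shRNA and the arrays labelled scramble, and a direction between them is not a direction of ONECUT2 loss.

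The promoters of the 4 genes are shown because ID1 and ID3 moved together across the 22Rv1 arrays while ID2 and ID4 did not follow them throughout. Each sequence holds the 250 bases before the RefSeq start of the gene (build GRCh38.p14), read in the direction of the gene. Capitals mark matches on either strand to the TATA box TATAAA, the CCAAT box CCAAT, the E-box CANNTG and the EGR element GCGNGGGCG. The ID1 stretch is chr20:31605039-31605288 on the plus strand, ID2 chr2:8681806-8682055 on the plus strand, ID3 chr1:23559502-23559751 on the minus strand and ID4 chr6:19837120-19837369 on the plus strand.
ID1: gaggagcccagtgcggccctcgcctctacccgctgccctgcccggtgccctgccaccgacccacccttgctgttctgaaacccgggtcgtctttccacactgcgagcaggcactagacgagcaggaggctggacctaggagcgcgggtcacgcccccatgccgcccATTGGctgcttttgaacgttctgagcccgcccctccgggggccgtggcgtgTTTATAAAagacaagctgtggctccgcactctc
ID2: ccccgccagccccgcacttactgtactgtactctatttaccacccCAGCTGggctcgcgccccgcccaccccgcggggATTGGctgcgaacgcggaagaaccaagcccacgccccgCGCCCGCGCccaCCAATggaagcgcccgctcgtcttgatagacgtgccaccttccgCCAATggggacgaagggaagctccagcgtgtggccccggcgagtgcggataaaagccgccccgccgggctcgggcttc
ID3: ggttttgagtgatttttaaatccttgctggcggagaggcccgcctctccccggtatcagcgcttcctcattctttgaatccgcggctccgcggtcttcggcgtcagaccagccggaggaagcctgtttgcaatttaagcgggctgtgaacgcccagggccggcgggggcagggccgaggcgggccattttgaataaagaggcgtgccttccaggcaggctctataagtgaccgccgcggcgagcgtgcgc
ID4: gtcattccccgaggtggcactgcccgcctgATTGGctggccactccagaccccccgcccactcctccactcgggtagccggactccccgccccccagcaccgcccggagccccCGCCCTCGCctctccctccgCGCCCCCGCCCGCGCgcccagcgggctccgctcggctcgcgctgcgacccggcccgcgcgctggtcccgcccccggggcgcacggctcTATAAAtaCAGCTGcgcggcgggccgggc
The ID1 promoter holds TATAAA 2 times, on opposite strands and overlapping, at 33 to 28 and 31 to 26 bases before the start, and ID4 holds it at 29 to 24. TATAAA occurs in 11.1% of 27305 promoters of the same length. CCAAT occurs 1 time in ID1, 3 times in ID2, 1 time in ID4 and not in ID3, against 33.0% of all promoters with a match. The E-box CANNTG occurs 1 time each in ID2 and ID4, in both as CAGCTG, and 62.2% of all promoters hold a match. The EGR element has 1 match in ID2 and 3 in ID4, of which 2 overlap, against 8.3% of promoters with any. The GC box GGGCGG, which can overlap the EGR element, has 2 matches in ID1, 2 in ID2, none in ID3 and 6 in ID4 (42.3% of promoters). The core TGACG of the CRE has 1 match, in ID3 (21.7%). The GC-rich BMP SMAD element GGCGCC (16.1%) and the ONECUT cores ATTGAT (5.7%) and ATCGAT (0.7%) have no match in these 4 windows, which says only that these letters are not there. GC content is 66.0% in ID1, 69.2% in ID2, 62.0% in ID3 and 78.8% in ID4, against a median of 58.0% over all promoters.

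ID1, the member most often tied to proliferation, had its highest level on the arrays labelled scramble and its lowest in LNCaP control. Its probe set 208937_s_at read 11.57, 11.82 and 11.59 on the 22Rv1 control arrays (mean 11.66 ± 0.14, SD, n = 3) and 10.07, 9.82 and 10.03 on the 22Rv1 overexpression arrays (9.97 ± 0.14). All 3 overexpression arrays lay below all 3 controls, a difference of -1.69 ± 0.17 on the log2 scale (SE of the model over all genes), or 3.22-fold lower. As in any extract of bulk cells, fewer cells with the transcript and less transcript per cell cannot be told apart here. On the arrays labelled scramble ID1 read 12.67, 12.84 and 12.48, and on those labelled ONECUT2 shRNA 11.53, 11.79 and 11.63. The latter were lower by 1.01 ± 0.17 and overlapped the 22Rv1 controls. The LNCaP controls read 9.38, 9.06 and 8.85, and the LNCaP overexpression arrays 11.26, 11.42 and 10.68. ID1 was thus 4.06-fold higher with overexpression in LNCaP (2.02 ± 0.17, and 1.95 without replicate 1), with no overlap between the groups. In order of the means, scramble (12.66) was followed by 22Rv1 control (11.66) and ONECUT2 shRNA (11.65), whose ranges overlapped, and then by LNCaP overexpression (11.12), 22Rv1 overexpression (9.97) and LNCaP control (9.10), each apart from its neighbours.

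**Figure D1:**
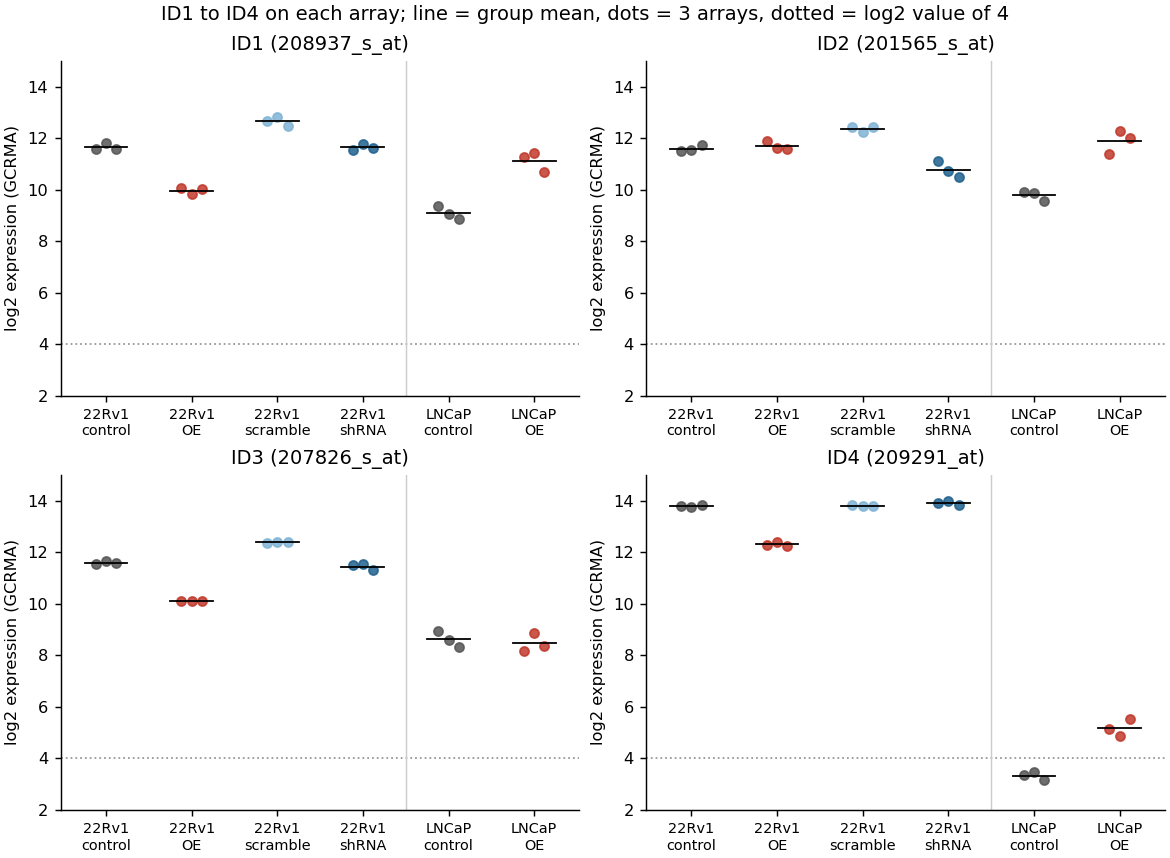
Log2 expression of ID1, ID2, ID3 and ID4 on each of the 18 arrays, for the probe set with the highest mean of each gene; OE is ONECUT2 overexpression, dots are arrays, lines are group means of 3 arrays and the dotted line is a log2 value of 4. ID1 is lower in 22Rv1 overexpression (mean 9.97) than in control (11.66) and higher in LNCaP overexpression (11.12) than in control (9.10), while ID4 is over 12 on every 22Rv1 array and under 4 on the LNCaP controls.

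ID3, a close relative of ID1 in sequence and use, followed ID1 in 22Rv1 and parted from it in LNCaP. Its probe set 207826_s_at read 11.53, 11.66 and 11.58 on the 22Rv1 control arrays (mean 11.59 ± 0.06) and 10.12, 10.12 and 10.10 with overexpression (10.11 ± 0.01). The difference was -1.48 ± 0.16, or 2.78-fold lower, with all overexpression arrays under all controls. The arrays labelled scramble read 12.38, 12.41 and 12.39, and those labelled ONECUT2 shRNA 11.50, 11.55 and 11.30, lower by 0.94 ± 0.16. Here too the arrays labelled ONECUT2 shRNA overlapped the 22Rv1 controls, at a difference of -0.14 ± 0.16. In LNCaP the 3 controls read 8.96, 8.60 and 8.33 and the 3 overexpression arrays 8.17, 8.86 and 8.38. These ranges overlapped, and the difference was -0.16 ± 0.16 (-0.01 without replicate 1). The order of the means was scramble (12.39), 22Rv1 control (11.59) and ONECUT2 shRNA (11.45), which overlapped, 22Rv1 overexpression (10.11), and last LNCaP control (8.63) and LNCaP overexpression (8.47), which overlapped.

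ID2, the member known for binding the retinoblastoma protein as well as E proteins, was not lower in 22Rv1 overexpression as ID1 and ID3 were. Probe set 201565_s_at read 11.52, 11.54 and 11.73 on the 22Rv1 control arrays and 11.89, 11.62 and 11.60 with overexpression, ranges that overlap. The difference was 0.11 ± 0.19, and -0.05 when every array was centred on its 75th percentile. The second ID2 probe set, 201566_x_at, read 9.60, 9.57 and 9.64 against 10.34, 10.27 and 10.41, a difference of 0.73 ± 0.18 with no overlap. The 2 probe sets of ID2 thus differ here in size and in whether the groups overlap. On 201565_s_at the arrays labelled scramble read 12.42, 12.25 and 12.43 and those labelled ONECUT2 shRNA 11.10, 10.72 and 10.50, a difference of -1.60 ± 0.19 (3.02-fold lower). On 201566_x_at the same difference was -1.74 ± 0.18. ID2 was the member with the largest difference between these groups on the probe sets used for gene levels, and its ONECUT2 shRNA arrays also lay below the 22Rv1 controls, by 0.82 ± 0.19. In LNCaP, 201565_s_at read 9.92, 9.87 and 9.58 on the controls and 11.39, 12.30 and 12.02 with overexpression, 4.33-fold higher (2.11 ± 0.19, and 2.37 without replicate 1). The second probe set gave 1.97 ± 0.18. The scramble (12.37), LNCaP overexpression (11.90), 22Rv1 overexpression (11.70) and 22Rv1 control (11.59) groups each overlapped the next in order, followed by ONECUT2 shRNA (10.77) and LNCaP control (9.79), which stood apart.

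ID4 separated the lines. Its probe set with the highest mean, 209291_at, read 13.80, 13.76 and 13.84 on the 22Rv1 control arrays and 3.36, 3.47 and 3.17 on the LNCaP control arrays, all 3 of them under 4. Set against 4, ID4 was at least 890-fold lower in LNCaP control. With overexpression it read 12.28, 12.40 and 12.26 in 22Rv1, lower than control by 1.48 ± 0.13 (2.80-fold). In LNCaP overexpression it read 5.12, 4.85 and 5.52, over 4 on all 3 arrays and at least 2.24-fold higher than in the controls. The difference of the measured means, which takes in control values at background, was 1.83, and 1.85 without replicate 1. The ID4 level in LNCaP overexpression stayed far below that of any 22Rv1 group, at a mean of 5.16 against 12.31 to 13.91. On the arrays labelled scramble and ONECUT2 shRNA this probe set read 13.83, 13.82 and 13.81 and 13.92, 13.99 and 13.84. These groups did not overlap, yet the difference was only 0.09 ± 0.13, less than its standard error.

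The other ID4 probe sets gave the same picture between the lines and under overexpression in 22Rv1, and another picture for the shRNA groups. In 22Rv1 overexpression the differences from control were -1.93 ± 0.19 on 209292_at, -2.27 ± 0.22 on 209293_x_at and -2.36 ± 0.18 on 226933_s_at, each larger in size than the -1.48 of 209291_at. On 209292_at the control arrays read 10.42, 10.09 and 10.58 and the overexpression arrays 8.28, 8.62 and 8.41. On 226933_s_at they read 7.42, 7.61 and 7.75 against 4.87, 5.49 and 5.33. For the arrays labelled ONECUT2 shRNA against scramble, 209292_at read 10.33, 10.41 and 10.57 against 9.25, 9.01 and 9.82, a difference of 1.07 ± 0.19 upward. 209293_x_at went the other way, with 7.42, 7.47 and 6.81 against 7.53, 7.52 and 7.71 (-0.35 ± 0.22). 226933_s_at overlapped between these groups (-0.23 ± 0.18). On 209292_at the arrays labelled scramble were also lower than the 22Rv1 controls, by 1.00 ± 0.19, where 209293_x_at and 226933_s_at were higher by 0.58 ± 0.22 and 0.63 ± 0.18. The ID4 probe sets therefore disagree on the shRNA groups, and no direction is given for ID4 there. In LNCaP, 209292_at and 226933_s_at lay under 4 on all 6 arrays, and 209293_x_at read 3.81, 3.67 and 4.06 on the controls and 4.15, 4.41 and 4.15 with overexpression. The ID4 level over 4 in LNCaP overexpression thus rests on 209291_at, with 209293_x_at 0.39 ± 0.22 higher at the edge of background. The fifth ID4 probe set, 229386_at, lay under 4 on all 18 arrays.

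**Figure D2:**
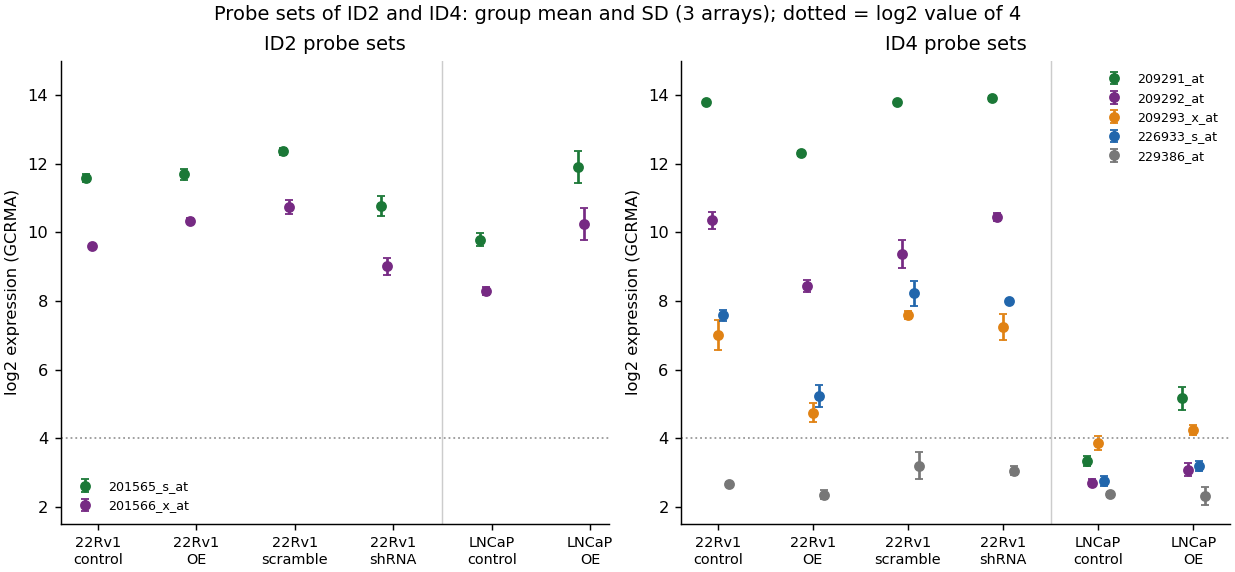
Group means and SDs (3 arrays each) of log2 expression for the 2 probe sets of ID2 and the 5 of ID4; OE is ONECUT2 overexpression and the dotted line is a log2 value of 4. Both ID2 probe sets are highest on the arrays labelled scramble and lowest in LNCaP control. In 22Rv1 overexpression 201566_x_at is higher than control by 0.73, where 201565_s_at differs by 0.11. Of the ID4 probe sets 4 lie lower in 22Rv1 overexpression and in LNCaP, while 229386_at stays under 4 throughout.

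With ONECUT2 overexpression in 22Rv1, 3 of the 4 ID genes were lower with no overlap between the groups, ID1, ID3 and ID4, and ID2 overlapped. On the probe sets used for gene levels they were lower by 2.78-fold to 3.22-fold. ID4 was 3.8-fold, 4.82-fold and 5.14-fold lower on 209292_at, 209293_x_at and 226933_s_at. No ID gene was higher without overlap at the gene level. Over all 12159 genes tested, 32.0% were lower without overlap and 44.7% higher. Of the 9 probe sets, 7 were lower, 1 was higher and 1 overlapped, where 34.8% of all tested probe sets were lower and 39.1% higher. 8 of the 9 passed the filter of a log2 value over 4 on at least 3 arrays, and 229386_at did not. The median difference of all tested genes was 0.10 in this comparison and -0.06 after centring on the 75th percentile, where ID1, ID3 and ID4 were lower by 1.85, 1.64 and 1.64.

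With overexpression in LNCaP, 3 of the 4 genes were higher without overlap, ID1, ID2 and ID4, and ID3 overlapped. Among all tested genes 32.0% were higher without overlap and 26.2% lower, with a median difference of 0.09. At the probe set level 7 of 9 were higher and 2 overlapped, against 27.7% of all tested probe sets higher and 28.5% lower. 4 of the 7, all of ID4, had 1 or both group means under 4. ID1 therefore moved in opposite directions in the 2 lines, lower by 1.69 in 22Rv1 and higher by 2.02 in LNCaP, and ID4 likewise, lower by 1.48 in 22Rv1 and higher by at least 1.16 in LNCaP, where its controls lay under 4. The gap between the effects was 3.71 ± 0.24 for ID1, 2.01 ± 0.26 for ID2 and 1.32 ± 0.22 for ID3, and at least 2.65 for ID4 on 209291_at. These gaps are descriptions and were not tested. ID1 was lower in LNCaP (mean 9.10) than in 22Rv1 (11.66) among the controls and higher in LNCaP (11.12) than in 22Rv1 (9.97) with overexpression, so the order of the lines turned.

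For the arrays labelled ONECUT2 shRNA against those labelled scramble, ID1, ID2 and ID3 were lower without overlap, by 1.92-fold to 3.02-fold, and ID4 is given no direction because its probe sets disagree. That is 3 of 4 genes lower, where 29.7% of all tested genes were lower and 23.9% higher, with a median of -0.03. The arrays labelled scramble were in turn higher than the 22Rv1 controls for ID1 (1.00 ± 0.17), ID2 (0.77 ± 0.19) and ID3 (0.80 ± 0.16), 3 of 4 genes against 30.1% of all genes higher and 19.9% lower. ID4 overlapped there, at 0.02 ± 0.13 and at -0.01 after centring on the 75th percentile. The arrays labelled ONECUT2 shRNA set directly against the 22Rv1 controls left ID1, ID3 and ID4 overlapping and ID2 lower by 0.82 ± 0.19, 1 of 4 genes lower and 0 higher against 15.2% and 19.6% of all genes. These comparisons share arrays and are not independent of each other. For ID1, ID2 and ID3 the arrays labelled scramble lay above the 22Rv1 control arrays and above those labelled ONECUT2 shRNA. The arrays labelled scramble are also those with the lowest ONECUT2 level of the 22Rv1 groups, and whether the labels of these groups are exchanged was not tested.

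Between the control cells of the lines, all 4 ID genes were lower in LNCaP without overlap, where 41.6% of all tested genes were lower and 37.5% higher. ID1 was lower by 2.56 ± 0.17 (5.91-fold), ID2 by 1.80 ± 0.19 (3.49-fold) and ID3 by 2.96 ± 0.16 (7.78-fold). ID4 was at least 890-fold lower on 209291_at, at least 82.4-fold on 209292_at and at least 12.1-fold on 226933_s_at. On 209293_x_at the measured means differed by 3.16 on the log2 scale, with 2 of the 3 LNCaP control arrays under 4. All 9 probe sets lay lower in LNCaP control, 229386_at among them with both groups under 4, where 38.8% of all tested probe sets were lower and 39.5% higher.

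**Figure D3:**
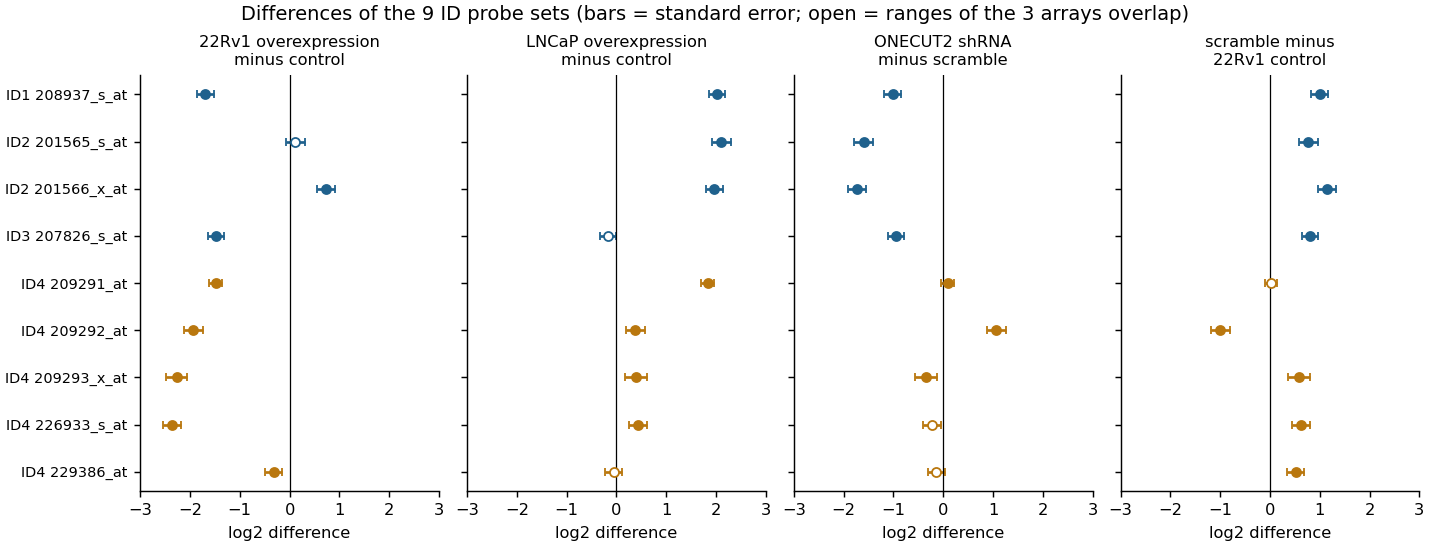
Differences of the 9 ID probe sets on the log2 scale in 4 comparisons, with the standard error of the model as bars; filled points have no overlap between the 3 arrays of each group, open points overlap. ID1 and the ID4 probe sets lie left of 0 in 22Rv1 overexpression and ID1, ID2 and 4 of the 5 ID4 probe sets right of 0 in LNCaP overexpression, and ID1, ID2 and ID3 change sides between the shRNA and the scramble panels.

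Over the 12 arrays of 22Rv1, which hold 4 groups of 3, ID1 and ID3 ran together with a Pearson r of 0.99, while ID1 and ID2 gave 0.26 and ID2 and ID4 gave -0.13. ID4 gave 0.88 there with ID1 and with ID3. Its means on 209291_at were 13.8 to 13.91 except in overexpression (12.31). It thus shared their lower level there but not their rise on the arrays labelled scramble. Over all 18 arrays ID1 and ID3 gave 0.773, since ID1 was higher in LNCaP overexpression and ID3 was not. These are descriptions of arrays that share their group and line, and a correlation over them mostly follows the group means. The tested genes most like each member were then listed. Symbols of uncharacterised (such as LOC, LINC, KIAA and FAM), antisense and open-reading-frame genes were left out. Among the rest, the 4 most like ID1 over the 18 arrays were CRIP2 (r = 0.958), MVP (0.951), KITLG (0.934) and WNT2 (0.927). KITLG, the ligand of the receptor KIT, had group means of 8.94 in 22Rv1 control, 6.53 in 22Rv1 overexpression, 5.88 in LNCaP control and 8.41 in LNCaP overexpression. This is the same turn as ID1, seen also in CRIP2, MVP and WNT2, with some of their means under 4. All 4 were picked for their likeness to ID1, so a shared pattern was built in. The most like ID2 were SERPINI1 (0.936), ZNF512B (0.909), SPATA2L (0.905) and MBD1 (0.904). For ID3 they were HGF (0.991), ADIRF (0.989), GPC6 (0.988) and NEGR1 (0.984). HGF, the ligand of the receptor MET, had means of 6.50 in 22Rv1 control, 4.23 in 22Rv1 overexpression and 7.42 on the arrays labelled scramble, and lay under 4 in both LNCaP groups. For ID4 they were SGCE (0.997), RGS2 (0.996), GPAT2 (0.996) and TIA1 (0.995). The gap between the lines splits the 18 arrays into 2 separate clusters for ID4, which by itself brings such values close to 1. Over the 12 arrays of 22Rv1 alone the same genes gave 0.98, 0.88, 0.89 and 0.86, in the same order.

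The ID4 value in LNCaP overexpression was set beside genes with the same starting point. In all, 34 genes, ID4 among them, had a log2 value over 9 on every 22Rv1 array and under 4 on every LNCaP control array. On the LNCaP overexpression arrays 19, 19 and 5 of the 34 were still under 4 in replicates 1, 2 and 3. Their medians were 3.81, 3.79 and 5.16, and ID4 read 5.12, 4.85 and 5.52. On these arrays 9, 8 and 12 of the other genes lay above ID4, so ID4 lay above the median of the 34 on each array. Genes other than ID4 thus also read over 4 on these arrays, most of them in replicate 3, and the part of this in the ID4 value was not tested.

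**Figure D4:**
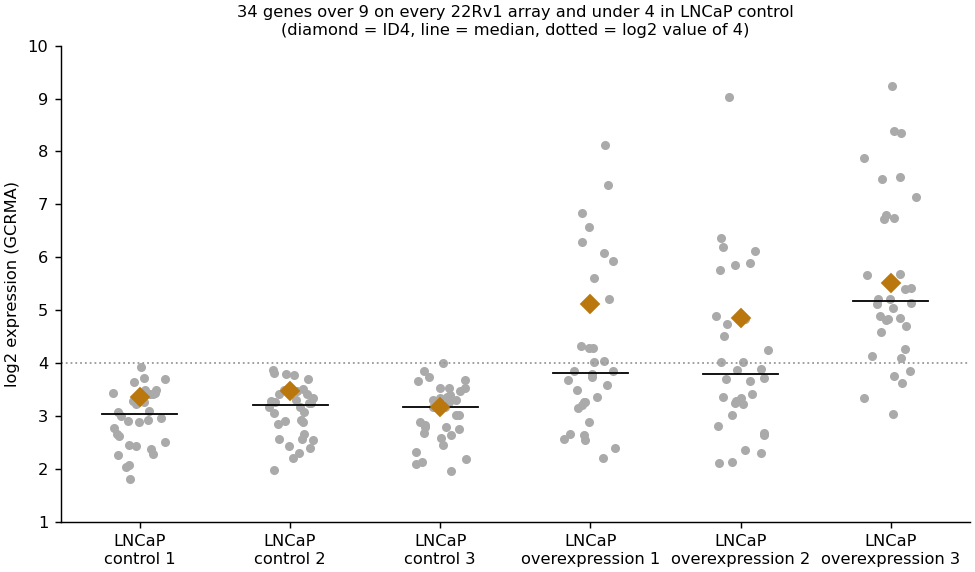
Log2 expression of 34 genes that lie over 9 on every 22Rv1 array and under 4 on every LNCaP control array, shown on the 6 LNCaP arrays; grey dots are genes, the diamond is ID4, the line is the median and the dotted line is a log2 value of 4. The medians are 3.81, 3.79 and 5.16 on the 3 overexpression arrays, and ID4 reads 5.12, 4.85 and 5.52.

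The genes around the ID proteins were tested with limma over all 12159 genes. Their lists were also drawn up with earlier results of these data known, and most genes named were picked by smallest p. Their adjusted p-values therefore describe these arrays and are not independent evidence. Of 108 listed genes 56 could be tested, and 21 rose and 10 fell in 22Rv1 overexpression, 21 rose and 14 fell in LNCaP overexpression, and 9 rose and 12 fell on the arrays labelled ONECUT2 shRNA against scramble. Over all tested genes 60.8%, 62.2% and 29.5% passed in these comparisons. In 22Rv1 overexpression 36.5% rose and 24.3% fell, with 34.1% and 28.0% in LNCaP overexpression and 13.4% and 16.1% for ONECUT2 shRNA against scramble. After centring on the 75th percentile the share of calls that rose in 22Rv1 overexpression went from 60.1% to 47.2% over all genes and from 67.7% to 58.1% over the listed genes. Of the 3 E proteins, the direct partners, 1 fell in 22Rv1 overexpression and none passed in LNCaP, where 2 passed without overexpression replicate 1 and 1 without replicate 2. TCF3 differed by 0.49 ± 0.25 in 22Rv1 overexpression (limma adjusted p = 0.099) and 0.44 ± 0.25 in LNCaP overexpression (adjusted p = 0.139, and 0.89 with adjusted p = 9.60e-07 without replicate 1). TCF12 differed by 0.10 ± 0.21 and 0.03 ± 0.21 (limma adjusted p = 0.704 and 0.906), and by -0.33 in LNCaP without replicate 1 (adjusted p = 0.0163). TCF4 fell by 0.59 ± 0.21 in 22Rv1 overexpression (limma adjusted p = 0.0245), a call lost without overexpression replicate 3 or control replicate 3 (adjusted p = 0.126 and 0.0756), and lay under 4 in LNCaP. On the arrays labelled ONECUT2 shRNA TCF4 rose by 0.94 ± 0.21 against scramble (limma adjusted p = 0.00308).

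Of the BMP ligands, 3 of 13 with a probe set could be tested. BMP2 read 10.65, 10.93 and 10.97 on the 22Rv1 control arrays and 8.02, 7.93 and 8.14 with overexpression, a fall of 2.82 ± 0.28 (limma adjusted p = 2.13e-07), and lay under 4 on all LNCaP arrays. BMP6 fell by 0.63 ± 0.15 (limma adjusted p = 0.00129) and BMP8B rose by 0.77 ± 0.19 (adjusted p = 0.00215) in 22Rv1 overexpression. In LNCaP overexpression BMP8B alone of the ligands passed the test, up by 1.01 ± 0.19, where 3 passed without overexpression replicate 1, and 2 without overexpression replicate 2 or without control replicate 1. Of 6 receptors and co-receptors, 3 passed in LNCaP overexpression and 5 without its replicate 1. ACVR2B rose in both lines, by 1.43 ± 0.20 and 1.20 ± 0.20 (limma adjusted p = 1.38e-05 and 7.68e-05). RGMB, a BMP co-receptor, rose by 1.95 ± 0.15 in 22Rv1 and fell by 1.74 ± 0.15 in LNCaP (limma adjusted p = 1.14e-08 and 3.60e-08), opposite to ID1 in both. Among the BMP targets other than the ID genes, SMAD6, which blocks the pathway, fell in both lines, by 0.93 ± 0.16 and 0.89 ± 0.16 (limma adjusted p = 1.19e-04 and 1.69e-04). On the arrays labelled ONECUT2 shRNA SMAD6 was lower than on those labelled scramble by 0.71 ± 0.16 (limma adjusted p = 0.00335), and differed from 22Rv1 control by -0.08 ± 0.16 (adjusted p = 0.879). SMAD7 went the way of ID1, down by 0.38 ± 0.14 in 22Rv1 and up by 0.67 ± 0.14 in LNCaP (limma adjusted p = 0.0255 and 5.30e-04). The SMAD7 effect differed between the lines by 1.06 ± 0.20 (limma adjusted p = 4.26e-04), as did that of 44.7% of all tested genes, 18.1% more positive and 26.6% more negative in LNCaP. MSX1 and HEY1 rose in both lines, by 1.78 ± 0.19 and 1.11 ± 0.15 in 22Rv1 and 1.24 ± 0.19 and 1.16 ± 0.15 in LNCaP. Of 8 such targets tested, 2 rose and 3 fell in 22Rv1 overexpression and 4 rose and 2 fell in LNCaP. The 5 calls in 22Rv1 became 3 without overexpression replicate 3 or without control replicate 2. The part of these BMP pathway genes in the ID differences was not tested.

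Of the genes for cyclin-dependent kinase inhibitors, 3 of 4 rose with overexpression in each line and CDKN2A did not pass in either. CDKN1A rose by 0.59 ± 0.14 in 22Rv1 and 3.44 ± 0.14 in LNCaP (limma adjusted p = 0.00138 and 2.89e-12), and CDKN1C by 1.93 ± 0.17 and 4.25 ± 0.17 (adjusted p = 6.98e-08 and 3.06e-12). ID1 was lower in 22Rv1 and higher in LNCaP, and a link between these genes and ID1 was not tested. Among regulators of ID1 transcription, EGR1 rose by 2.80 ± 0.20 in 22Rv1 and 6.53 ± 0.20 in LNCaP, and ATF3, a repressor of ID1 in TGF-beta signalling, by 1.44 ± 0.17 and 2.16 ± 0.17 (limma adjusted p from 1.36e-13 to 2.00e-06). KLF6 rose in LNCaP by 1.75 ± 0.20 and differed by -0.05 ± 0.20 in 22Rv1 (limma adjusted p = 1.32e-06 and 0.846), and its effect differed between the lines by 1.80 ± 0.28 (limma adjusted p = 9.52e-05). USP1, the enzyme that removes ubiquitin from ID proteins and stabilises them, fell in both lines, by 0.45 ± 0.06 and 0.96 ± 0.06 (limma adjusted p = 1.15e-05 and 1.54e-09). ELK3, an ETS factor of the ternary complex group that ID proteins can bind, rose by 3.61 ± 0.20 in 22Rv1 (limma adjusted p = 3.07e-10). Of 8 tissue-restricted bHLH factors tested, OLIG1 rose in both lines, at least 3.80-fold in 22Rv1 where the controls lay under 4, and ATOH7 fell by 1.45 ± 0.18 in 22Rv1 (limma adjusted p = 3.43e-09 and 2.82e-06).

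**Figure D5:**
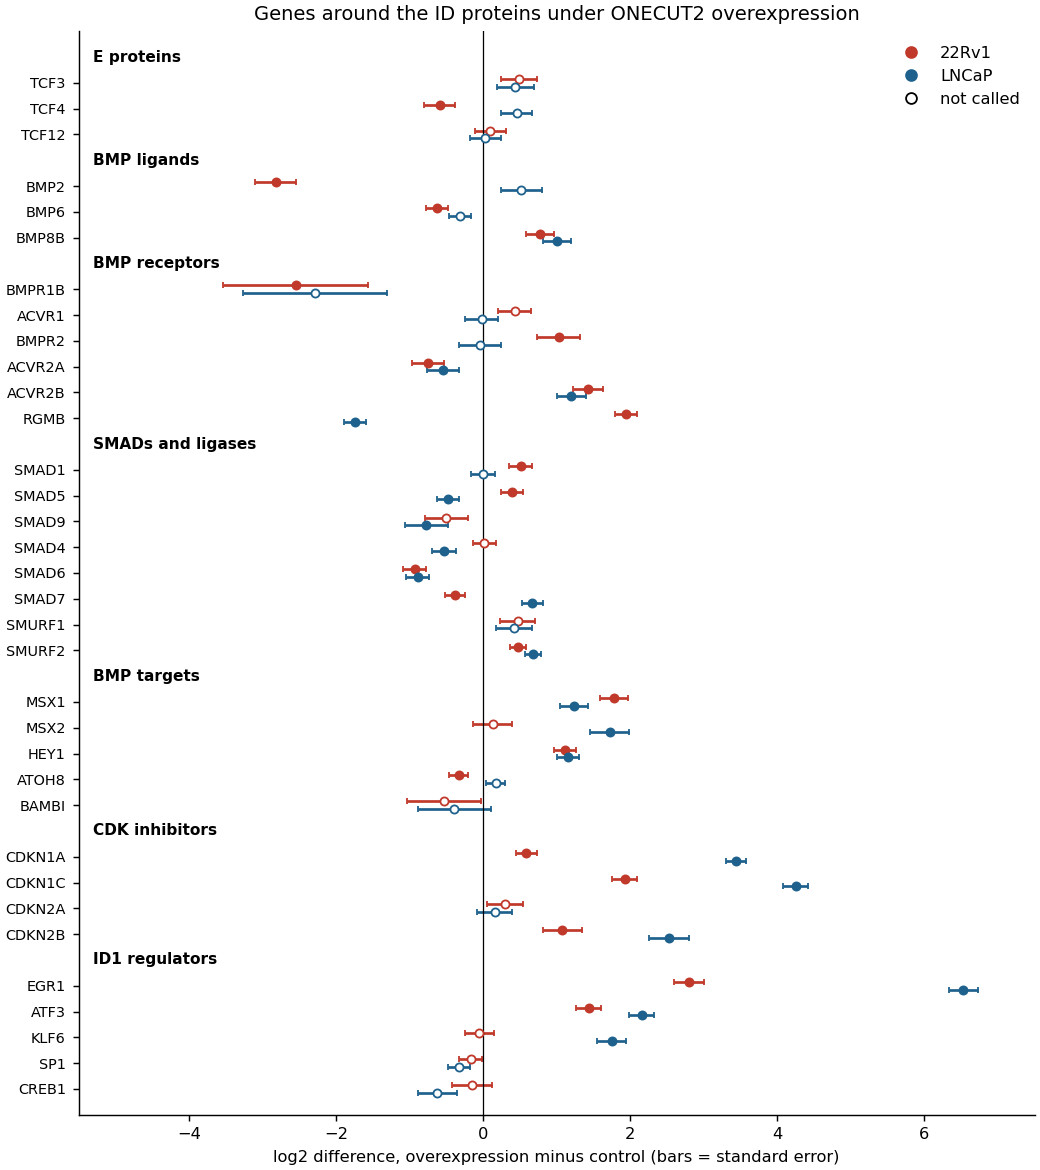
Log2 differences of genes around the ID proteins under ONECUT2 overexpression in 22Rv1 (red) and LNCaP (blue), relative to the control of each line, with standard errors as bars; filled points have a limma adjusted p under 0.05. BMP2 falls by 2.82 in 22Rv1, RGMB goes in opposite directions in the lines, and EGR1 and CDKN1C rise in both.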

How the data were processed

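Total RNA of 18 samples was read on Affymetrix arrays, 3 arrays in each of 6 groups. The control and overexpression groups were taken from the sample titles, and the scramble and ONECUT2 shRNA groups from the sample descriptions. The authors deposited log2 values made with GCRMA, per the submitters' processing notes. Its version is not given in the sources used here, nor whether all arrays were normalised together. Probe sets with 1 gene symbol were used, and a gene's level is its probe set with the highest mean. Of 19775 genes, 12159 had a log2 value over 4 on at least 3 arrays and were tested. 1 model of the 6 groups (limma 3.58.1 in R 4.3.3, trend and robust) gave differences, standard errors and Benjamini-Hochberg adjusted p-values within each comparison, with a threshold of 0.05. The model was tested on simulated data. Precision is limited by having 3 arrays a group. The members and gene lists were chosen with earlier results of these data known. The ID genes therefore have no p-value, and the p-values of the listed genes carry the same limit. Named genes are the ID probe sets, ONECUT2, the E proteins, up to 3 called genes per list and comparison by smallest p, and the 4 genes most correlated with each ID gene. CDKN2A, and KLF6 and MSX1 in other comparisons, are named for comparison. Alternatives changed the scaling, filter, moderation, samples, probe set rule, replicate block and single arrays.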

Additional observations from a re-analysis of the deposited data

Results flagged for a closer look

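The effect of ONECUT2 overexpression went in opposite directions in LNCaP and 22Rv1 on all 3 arrays of each group for ID1, with a gap of 3.71 on the log2 scale, and for ID4 on 209291_at, with a gap of 3.31 between measured means. The LNCaP controls of 209291_at lay under 4, and counted from 4 the gap is at least 2.65. The ID4 probe set 209293_x_at showed the same, with a gap of 2.66, but its LNCaP values lie near a log2 value of 4. These differences were not tested.

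Of 56 tested genes around the ID proteins, 14 had a more positive and 11 a more negative effect in LNCaP by limma's interaction term. Over all 12159 tested genes, 18.1% were more positive and 26.6% more negative. The 20 genes given here are those that the naming rule also picked in an overexpression comparison. The effect was more positive in LNCaP for EGR1 (3.73), BMP2 (3.33), CDKN1A (2.85), CDKN1C (2.32), KLF6 (1.80), MSX2 (1.58), CDKN2B (1.45), ATOH7 (1.31), SMAD7 (1.06), TCF4 (1.05), BHLHA15 (0.81) and ATF3 (0.71). It was more negative in LNCaP for RGMB (-3.68), ELK3 (-2.91), ELK4 (-1.73), RBL1 (-1.30), RBL2 (-1.15), OLIG1 (-1.13), BMPR2 (-1.07) and USP1 (-0.51). BMP2 and TCF4 lay under 4 on all LNCaP arrays, MSX2 under 4 in 22Rv1 and OLIG1 under 4 in 22Rv1 control, so their gaps rest partly on values at background. The calls of ATF3, BHLHA15 and BMPR2 were lost when single arrays were left out. For ATF3 the adjusted p reached 0.0716 without 22Rv1 control replicate 3, for BHLHA15 0.0756 and for BMPR2 0.105 without LNCaP overexpression replicate 2.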

How the results depend on the processing

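Across the alternatives ID1, ID3 and ID4 stayed lower in 22Rv1 overexpression, and ID1, ID2 and ID4 higher in LNCaP overexpression. Centring each array on its 75th percentile moved the 22Rv1 overexpression differences to -1.85 for ID1, -0.05 for ID2, -1.64 for ID3 and -1.64 for ID4. The mean over all probe sets of a gene gave 0.42 for ID2 and -1.67 for ID4 in 22Rv1 overexpression and 0.60 for ID4 in LNCaP overexpression. With 1 array left out, ID1 ranged from -1.74 to -1.61 in 22Rv1 overexpression, from 1.87 to 2.24 in LNCaP overexpression and from -1.11 to -0.93 for ONECUT2 shRNA against scramble. ID2 ranged over 0.02 to 0.18, 1.91 to 2.37 and -1.76 to -1.46, ID3 over -1.51 to -1.44, -0.35 to 0.01 and -0.99 to -0.87, and ID4 over -1.53 to -1.46, 1.65 to 1.99 and 0.06 to 0.13 in the same order. A fit of only the groups compared called 4630 genes for scramble against 22Rv1 control in place of 2659, and 1978 for ONECUT2 shRNA against 22Rv1 control in place of 542. The latter count ranged from 210 (without ONECUT2 shRNA replicate 2) to 503, with 299 without ONECUT2 shRNA replicate 3 and 235, 340 and 225 without 22Rv1 control replicates 1, 2 and 3. The other counts with 1 array left out ranged from 6699 to 6769 genes in 22Rv1 overexpression, 6889 to 8838 in LNCaP overexpression, 2762 to 2997 for ONECUT2 shRNA against scramble, 1866 to 2322 for scramble against control, 7128 to 7202 between the lines and 4870 to 7558 for the interaction. The listed pathway genes called ranged over 25 to 28, 32 to 44 and 18 to 20. TCF12 turned to -0.33 in LNCaP overexpression without replicate 1 (limma adjusted p = 0.0163) and ranged up to 0.29 with other single arrays left out. Of the single-gene results under alternatives 1167 kept their side of the threshold, some uncalled values near 0 changing sign, while 51 lost the call, 5 gained it and 1 turned with a call. The cause of these changes was not tested. Under centring on the 75th percentile the share of interaction calls that were positive went from 40.5% to 58.4%.

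With the replicate number as a block, 7370, 7516 and 3521 genes were called in 22Rv1 overexpression, LNCaP overexpression and ONECUT2 shRNA against scramble, and 31, 35 and 21 pathway genes. Every group holds each replicate number, so the block could not change a difference between groups, only its error. It changed no call of a named gene. Deviations of same-numbered arrays correlated at -0.22 to 0.43, highest for replicates 2 and 3 of scramble against 22Rv1 control (0.43 and 0.34). In no comparison were all over 0.1, so the numbers were not taken to pair the arrays.

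The ID4 level in LNCaP lies near background, and the direction of ID4 in the shRNA groups depends on the probe set. No detection call per probe set was used here, so the background level of 4 is a choice. The arrays labelled ONECUT2 shRNA had more ONECUT2 signal than those labelled scramble.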
